A study of Mus musculus with 3 samples.

Results

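The Hand2/Hoxd11 gate held 737 of 28971 kept cells from 3 lots of E12.5 mouse fetal ovarian somatic cells (FOSCs). A cell was a member when at least 3 of the 6 genes Hand2, Hoxd11, Rspo3, Kif26b, Pappa2 and Itm2a had 1 or more UMI (unique molecular identifier, 1 captured RNA molecule), when Upk3b had none, and when Dazl had fewer than 5. These 8 genes are called the rule genes, and since they chose the cells their levels are given below as a description, without a test. Lot 26 gave 282 members, lot 29 gave 223 and lot 30 gave 232. The other 28234 kept cells are the comparison class.

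Each lot was a frozen stock of ovarian cells from the CD1 embryos of 10 pregnant mice, with the mesonephros cut away, the tissue dissociated with trypsin, and cells bearing SSEA1 (germ cells) or CD31 (endothelial cells) depleted on magnetic columns. The cells were thawed and profiled with the 10X Genomics 3′ v3 kit, 1 library per lot. All 3 lots share strain, age and handling and there is no second condition, so the comparisons below are between classes of cells within lots, with the lot as the replicate (n = 3). A lot is a pool of litters, so an SD over lots is the spread between pools and not between embryos.

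Members had a median of 9446 to 11331.5 UMIs per lot and the other kept cells 8941 to 11599, so the class was not set apart by depth. Of the kept barcodes, 69 occurred in a pair of lots, 4 of them in gate cells and none as a gate cell in both lots. Scrublet, which scores cells against simulated mixtures of 2 cells, called 12.8%, 6.28% and 10.8% of the gate doublets in lots 26, 29 and 30, against 5.62%, 4.00% and 5.82% of the other cells. These cells were kept, and leaving them out lost no call among the named genes for which it was recomputed.

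Hand2 is a basic helix-loop-helix transcription factor of limb, heart and reproductive tract mesenchyme. Hoxd11 belongs to the posterior Hox genes, which lie at the 5′ ends of the Hox clusters and pattern the hind trunk, the limb and the genital ducts. Rspo3 is an R-spondin, a secreted protein that binds Lgr4, Lgr5 and Lgr6 and prolongs Wnt signalling by removing the ubiquitin ligases Znrf3 and Rnf43. Pappa2 is a secreted protease that cleaves IGF binding proteins. Kif26b is a kinesin family protein tied to Wnt5a and Ror signalling, and Itm2a is a transmembrane protein of mesenchymal precursors. Upk3b marks the coelomic surface epithelium that covers the gonad, and Dazl marks germ cells. The counts carry no position in the tissue, so the name border cell, given to such cells for lying between epithelium and mesenchyme, could not be checked here, and the cells are named by the gate.

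In the GENCODE M21 annotation of GRCm38, Hand2 (ENSMUSG00000038193) spans chr8:57320983-57324633, Hoxd11 (ENSMUSG00000042499) chr2:74679557-74687016, Rspo3 (ENSMUSG00000019880) chr10:29452416-29535867, Kif26b (ENSMUSG00000026494) chr1:178529125-178939200, Pappa2 (ENSMUSG00000073530) chr1:158711727-158980490 and Itm2a (ENSMUSG00000031239) chrX:107397099-107403376. Hand2 overlaps the antisense gene Hand2os1 over 3251 bases, and Hoxd11 overlaps Gm28309 on the same strand over 3571 bases. Hoxa11 overlaps the antisense gene Hoxa11os over 1418 bases. The strand setting of the counting is not given in the sources used here, so reads from these partners could not be told apart.

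The start regions of Hand2, of Hoxd11 and of the 3 neighbouring HoxA genes that lay higher in the gate (below) are printed to show the sequence at the loci the results turn on. Each is the RefSeq window (GRCm38.p6) from 250 bases before to 50 bases after a transcription start, 5′ to 3′ on the gene's strand, with the letters CANNTG (the E-box bound by basic helix-loop-helix factors such as Hand2 and Twist1) in capitals. Where a gene had 2 windows, the one with more CG pairs is shown.
Hand2, chr8:57320733-57321032, plus strand: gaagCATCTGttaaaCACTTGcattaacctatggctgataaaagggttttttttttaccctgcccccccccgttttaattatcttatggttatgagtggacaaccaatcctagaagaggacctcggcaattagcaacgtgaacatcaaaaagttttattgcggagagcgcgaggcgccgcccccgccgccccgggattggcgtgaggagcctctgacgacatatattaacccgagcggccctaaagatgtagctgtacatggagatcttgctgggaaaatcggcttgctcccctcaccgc
Hoxd11, chr2:74682073-74682372, plus strand: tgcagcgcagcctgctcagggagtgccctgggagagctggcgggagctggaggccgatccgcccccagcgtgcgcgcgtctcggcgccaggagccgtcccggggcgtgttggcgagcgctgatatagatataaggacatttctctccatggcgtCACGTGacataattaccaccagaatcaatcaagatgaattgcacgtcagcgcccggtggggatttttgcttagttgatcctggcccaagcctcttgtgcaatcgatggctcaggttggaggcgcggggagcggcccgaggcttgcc
Hoxa9, chr6:52227321-52227620, minus strand: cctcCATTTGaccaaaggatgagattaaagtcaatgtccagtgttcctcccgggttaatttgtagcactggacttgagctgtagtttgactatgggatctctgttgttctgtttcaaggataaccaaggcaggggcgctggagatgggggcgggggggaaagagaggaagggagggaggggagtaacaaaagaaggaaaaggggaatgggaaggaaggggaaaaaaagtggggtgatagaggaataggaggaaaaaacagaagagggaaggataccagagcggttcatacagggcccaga
Hoxa10, chr6:52234890-52235189, minus strand: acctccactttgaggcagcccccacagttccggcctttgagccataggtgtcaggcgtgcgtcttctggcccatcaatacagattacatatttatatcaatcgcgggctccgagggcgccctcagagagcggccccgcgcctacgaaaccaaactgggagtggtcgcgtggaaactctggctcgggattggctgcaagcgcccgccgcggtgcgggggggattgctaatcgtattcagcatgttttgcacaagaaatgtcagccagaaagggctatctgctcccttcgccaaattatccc
Hoxa11, chr6:52245761-52246060, minus strand: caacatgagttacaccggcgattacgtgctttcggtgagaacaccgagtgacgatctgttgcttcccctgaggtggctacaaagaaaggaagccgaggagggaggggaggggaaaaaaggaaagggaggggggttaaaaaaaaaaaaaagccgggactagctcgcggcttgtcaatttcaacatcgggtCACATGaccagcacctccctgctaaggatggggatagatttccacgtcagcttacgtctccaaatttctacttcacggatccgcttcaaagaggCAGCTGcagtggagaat

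The Hand2 and Hoxa11 windows each held 2 CANNTG matches, the Hoxd11 and Hoxa9 windows 1 each, and the Hoxa10 window 0. Over 32851 RefSeq windows of this length, 72.3% held at least 1 match, so the letters are common. None of these windows held TGACAG, the core of the Meis motif, on either strand, against 19.2% of all windows. Searched on both strands, TATAAA had 1 match in these 5 windows, in the Hoxa10 window and on the strand opposite to the gene, so that the printed letters read tttata there; 13.6% of all windows held a match. CG pairs numbered 25 in Hoxd11, 21 in Hoxa10, 17 in Hand2, 15 in Hoxa11 and 4 in Hoxa9, beside a median of 7 over all windows. A match describes the letters and shows no binding, and a missing match says nothing of the factor. Windows for 5 of the 6 genes were found in the reference used, and none for Rspo3.

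The gate made up 2.90% of the kept cells in lot 26 (95% Clopper-Pearson interval 2.58 to 3.26), 2.61% in lot 29 (2.28 to 2.97) and 2.17% in lot 30 (1.90 to 2.46), a mean of 2.56% ± 0.371 (SD, n = 3). The intervals cover counting error within 1 library, and the SD is the spread between lots. The share followed the rule closely. Asking for 2 of the 6 genes gave 8.68%, asking for 4 gave 0.669%, and thinning each cell to 4000 UMIs before applying the rule gave 1.32%.

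Most members met the rule at its edge: 542 had 3 of the 6 genes, 164 had 4, 27 had 5 and 4 had all 6. The commonest set was Hand2, Kif26b and Itm2a, in 169 members (22.9%), followed by Rspo3, Kif26b and Itm2a in 110. Hand2 and Hoxd11 occurred together in 83 members (11.3%), either of them occurred in 568 (77.1%), and 169 (22.9%) had neither. The gene pair that names the gate was thus detected together in few of its cells, at a depth where 1 UMI decides detection.

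Itm2a was the least selective of the 6. It was detected in 95.8% of members and in 53.6% of the other cells, and without it the rule found 0.766% of kept cells. Hand2 was detected in 55.6% of members, in 6.78% of the other kept cells, in 5.04% of the stromal gate (below) and in 8.66% of the surface-epithelium gate. Both of these gates leave out cells with 3 or more of the 6 genes, which lowers their shares by construction. Among the 1392 cells that met the rule except for Upk3b, Hand2 was detected in 70.0%. Hoxd11 was detected in 32.7% of members against 3.73% of the other cells. Per lot, the median depth was 7876 to 9891.5 UMIs in the stromal gate and 12184 to 16185 in the surface-epithelium gate, and the part of free RNA in these low shares was not tested.

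By lot, Hand2 stood at 125, 106 and 86.7 counts per 1000000 UMIs of the class (CPM) in the gate in lots 26, 29 and 30, and at 12.502 ± 2.93 in the other cells (mean ± SD, n = 3). Hoxd11 stood at 58.8, 67.0 and 61.8 CPM against 7.53 ± 0.492. Rspo3 stood at 136, 117 and 128 CPM against 14.8 ± 2.22. Hand2 was lowest in lot 30 and the lots were closer for the others, and no lot of the gate came near the other cells, as the rule required.

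Kif26b stood at 105, 110 and 106 CPM in the gate against 14.9 ± 0.559 in the other cells. Pappa2 was the weakest of the 6, at 17.5, 20.9 and 26.2 CPM against 3.51 ± 0.330. Itm2a stood at 511, 547 and 480 CPM against 153 ± 11.4.

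**Figure D1:**
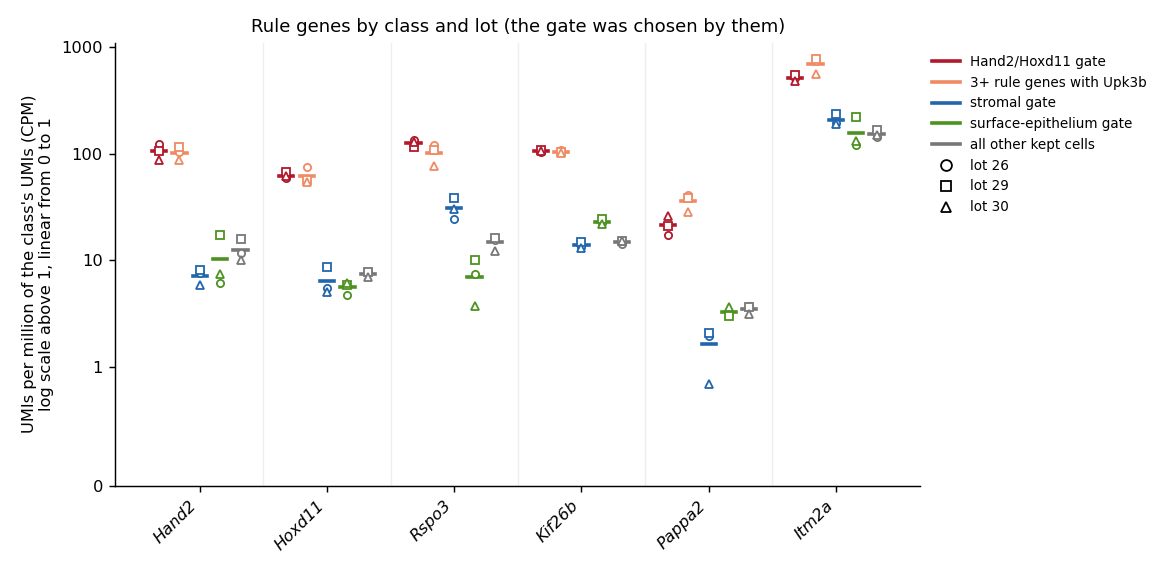
Level of the 6 genes that define the gate in CPM on an axis that is logarithmic above 1 and linear below it, in 5 classes of kept cells. Points are lots 26, 29 and 30 and bars are their means; the gate was chosen on these genes, so its height above the other classes (for Hand2 a mean of 106 against 12.502 CPM in all other kept cells) is a description.

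Because each gene helped to choose the cells, its level was also taken in cells chosen without it, those with at least 3 of the other 5 genes. Hand2 then stood at 88.8, 49.1 and 60.6 CPM, a mean of 66.2 against 14.1 in all remaining kept cells. Hoxd11 stood at 34.6, 30.4 and 43.2 CPM, a mean of 36.1 against 8.36. Rspo3 averaged 79.6 against 16.5 CPM and Kif26b 70.7 against 16.6.

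These 4 genes were therefore 4.29 to 4.96 times higher, as a mean over lots, in cells that they had not chosen. Itm2a was 3.65 times higher (577 against 159 CPM) and Pappa2 2.71 times (10.2 against 3.81 CPM). In every lot each of the 6 was above the remaining cells, with the smallest ratio, 1.98, for Pappa2 in lot 29. The 6 genes were found with one another in cells more than in the lot at large, while the held-out levels still share the depth of the cells with the rule. Every cell chosen this way is also a member, and the rule was set with earlier results of these data known. The held-out levels are therefore a description and no independent support for the gate.

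At the threshold, 1767 cells had 2 of the 6 genes, no Upk3b and fewer than 5 Dazl UMIs, and so fell just outside. Hand2 averaged 33.8 CPM in them, 88.6 in the 542 members with 3 genes and 150 in the 164 members with 4. Hoxa10, which the rule does not use, averaged 9.96 CPM just outside, 26.6 with 3 genes, 38.6 with 4 and 27.8 in the 31 members with 5 or 6, where it rested on 11 UMIs. The keratin Krt19 averaged 20.5, 56.2, 121 and 142 CPM along the same steps, and Col1a1, the fibrillar collagen of mesenchyme, 351, 420, 343 and 382. The mean of Krt19 rose at each step, and that of Hoxa10 rose up to 4 genes and was lower beyond. The lots did not all follow these means. From 4 genes to 5 or 6, Krt19 rose in lot 26 (97.8 to 229 CPM) and fell in lots 29 (144 to 85.6) and 30 (121 to 111). From 3 genes to 4, Hoxa10 fell in lot 26 (33.4 to 29.7 CPM) and rose in lots 29 and 30.

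The Upk3b condition removed more cells than it left. Of 2167 kept cells with 3 or more of the 6 genes, 1412 had a Upk3b UMI. The share of kept cells with Upk3b was 14.7% among cells with none of the 6 genes, 16.5% with 1, 38.4% with 2, 59.5% with 3, 70.9% with 4, 84.1% with 5 and 91.3% with all 6. Without the Upk3b condition the gate would have held 7.34% of kept cells. Among the excluded cells with fewer than 5 Dazl UMIs, 285 were excluded by exactly 1 Upk3b UMI. Those with 2 or more Upk3b UMIs (1107 cells) were deeper, with a median of 15306 UMIs, than those with 1 (11359) and than members with 3 genes (9826.5).

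**Figure D2:**
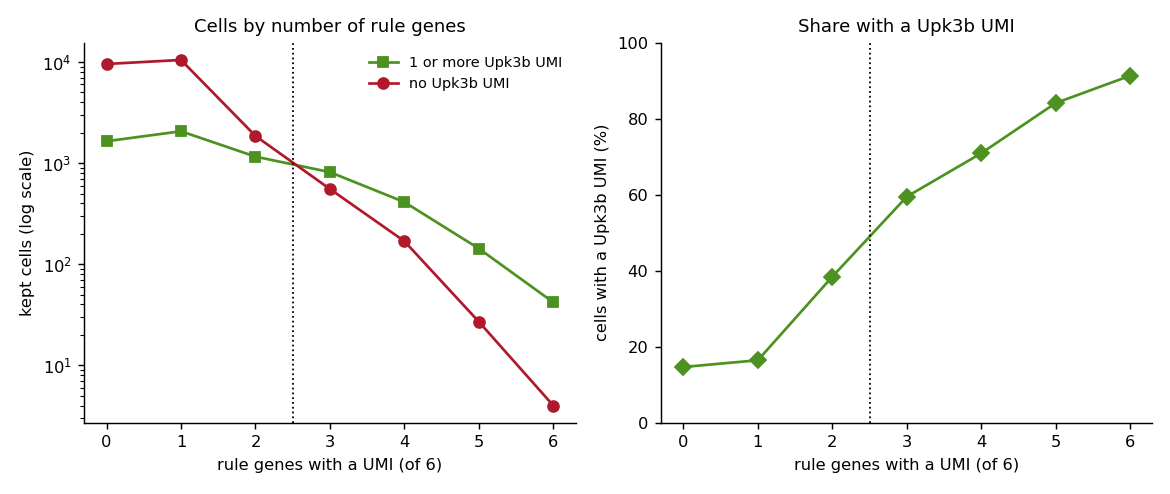
Left, number of kept cells (log scale) by how many of the 6 genes had a UMI, for cells with Upk3b (squares) and without it (circles). Right, percent of cells with a Upk3b UMI at each number; it rose from 14.7% at 0 genes to 91.3% at 6, and the dotted line marks the threshold of 3.

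The 1392 cells that met the rule except for Upk3b were close to the gate in mean Hand2 and Hoxd11. They lay apart from it in Krt19, Twist1 and Hoxa11. Hand2 averaged 103 CPM in these cells and Hoxd11 62.3, against 106 and 62.5 in the gate. The rule genes were not all as close, since Pappa2 was detected in 30.3% of these deeper cells and 15.6% of members. Krt19 was at 228, 196 and 186 CPM in lots 26, 29 and 30 with Upk3b, above 61.6, 82.1 and 82.5 in the gate, and Twist1 was at 34.5, 38.0 and 28.6 CPM against 90.0, 80.0 and 104. For neither gene did the lots of these classes overlap. Hoxa11 averaged 1.87 CPM with Upk3b and 10.8 without. These differences were not tested, since Upk3b divides the cells along the epithelial axis.

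Against all other kept cells, and outside the rule genes, 1484 of 14979 genes tested were higher in the gate (9.91%) and 1643 were lower (11.0%) by edgeR's quasi-likelihood test on UMI sums per lot and class at an adjusted p of 0.05. With the lot as a block 2498 were higher and 3080 lower, since both classes of a lot come from 1 pool. Without lot 30, the extreme, 547 were higher and 598 lower, and without lot 26 589 and 654. The median log2 fold change of all tested genes was -0.04. The comparisons with stromal and with surface-epithelial cells further on use the same gate sums, so the 3 are not independent and their values are given side by side only.

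Posterior genes of the HoxA cluster led the genes that were higher. Hoxa10, a determinant of uterine identity, stood at 32.1, 29.3 and 26.6 CPM in the gate and 3.06, 2.94 and 2.31 in the other cells of lots 26, 29 and 30. The lots did not overlap, and the log2 fold change was 3.33 (SE 0.17, edgeR adjusted p = 1.1e-05). Hoxa9 stood at 33.0, 35.6 and 29.003 CPM against 5.52, 7.06 and 4.92, a log2 fold change of 2.39 (SE 0.19, edgeR adjusted p = 8.83e-05). Hoxa11 stood at 12.3, 15.5 and 4.49 CPM against 0.433, 0.834 and 0.209, and rose by 4.38 (SE 0.60, edgeR adjusted p = 0.00115). Lot 30 was the lowest of the gate for Hoxa11 and was still above the other cells of every lot.

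Of 7 posterior HoxA and HoxD genes tested, 5 were higher in the gate and 0 lower, with a median log2 fold change of 1.20. Of the HoxD neighbours of Hoxd11, Hoxd10 stood at 34.97, 49.4 and 35.6 CPM against 15.0, 17.0 and 16.8 and rose by 1.20 (SE 0.16, edgeR adjusted p = 0.00108). Hoxd9 rose by 0.59 (SE 0.17, edgeR adjusted p = 0.0381), and this call was lost without each lot in turn (edgeR adjusted p 0.0585 to 0.128). Hoxd8 (0.60) did not pass the test but did with the lot as a block (adjusted p = 0.000482), Hoxa13 (0.02) passed neither, and Hoxd12 and Hoxd13 were too low to be tested.

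The difference was not limited to the posterior genes. Of 9 anterior HoxA and HoxD genes tested 8 were higher (median 1.70), among them Hoxa5 (1.99) and Hoxa7 (1.92). Of 15 HoxB and HoxC genes, anterior and posterior together, 11 were higher (median 1.44). Among these was Hoxc10, itself a posterior gene, at 37.8, 28.9 and 49.0 CPM against 7.97, 9.21 and 8.13 (2.11). No Hox gene of these lists was lower. Hoxc10 overlaps Hoxc5, and Hoxa5 overlaps Hoxa3, on the same strand, so their reads may be shared.

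**Figure D3:**
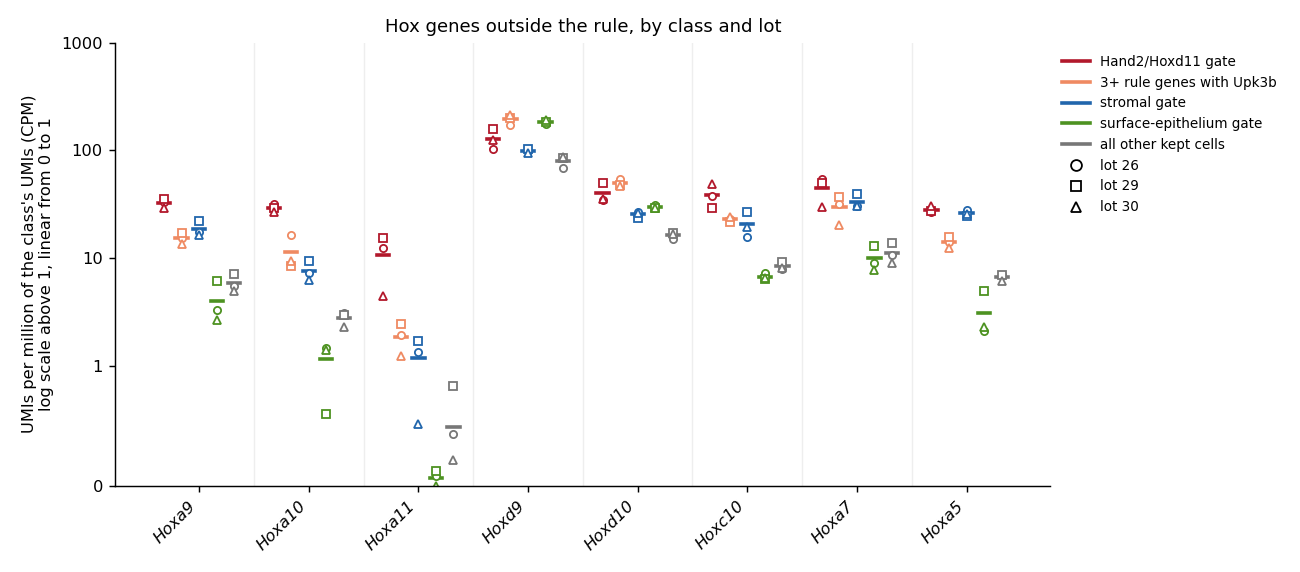
Level of 8 Hox genes that the rule does not use in CPM (logarithmic above 1, linear below), in 5 classes of kept cells; points are lots and bars are means of 3 lots. Hoxa10 and Hoxa11 are highest in the gate in every lot, while Hoxd9 is higher in the surface-epithelium gate (mean 183 CPM) than in the Hand2/Hoxd11 gate (128 CPM).

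Transcription factors of mesenchyme were higher together. Of 32 tested 21 were higher and 0 lower (median 1.27), among them Prrx1 (2.29), Twist1 (2.14), a basic helix-loop-helix factor like Hand2, Meis2 (2.08), a cofactor of Hox proteins, and Hic1 (1.83). Twist1 stood at 90.0, 80.0 and 104 CPM in the gate and 15.995, 23.7 and 18.9 in the other cells, with no overlap. Meis2 stood at 466, 370 and 461 CPM against 93.9, 99.3 and 96.5. Six2 passed the test (3.99) on lot 29 alone: it had 38 UMIs in the gate of lot 29, 1 in lot 26 and 0 in lot 30, and without lot 29 its log2 fold change was -0.50.

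Matrix genes of connective tissue moved the same way. Of 16 fibrillar matrix genes 13 were higher and 0 lower (median 1.11), with Col1a1 at 486, 297 and 421 CPM against 125, 92.9 and 105 (log2 fold change 1.82, SE 0.17, edgeR adjusted p = 0.000156). Vcan, a large proteoglycan, rose by 2.06, and Ddr2, a receptor for fibrillar collagen, by 2.12. All 6 stromal markers were higher, with Tcf21 at 279, 314 and 261 CPM against 74.6, 99.5 and 67.7 (1.73). Sema3d, a secreted guidance protein, rose by 2.09.

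The genes that fell most belonged to cell types that the gate leaves out. They were globins of red cells (Hba-x, Hbb-y, Hbb-bs, Hba-a1) and germ cell genes (Dppa5a, Smc1b, Rhox9, Dppa3, Map7d2, Stra8), with Hba-x lower by 5.13 on the log2 scale, and the Dazl condition removes germ cells directly. Of 8 pre-granulosa markers, genes of the future follicle cells, 7 fell and 0 rose (median -1.85), among them Fst (-2.33), the activin binding protein, and Wnt6 (-1.89). Their summed level was 273 to 834 CPM in the gate and 1872 to 2268 in the other cells. It was lowest in lot 29, where Fst stood at 23.9 CPM against 100 in each of the other lots.

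The genes of G2 and M phase were higher, while few of DNA replication were. Of 16 G2 and M phase genes 13 were higher and 0 lower (median 0.54), with Mki67 at 237, 152 and 178 CPM against 117, 93.5 and 91.4 (0.83, SE 0.15, edgeR adjusted p = 0.00517), while 2 of 14 DNA replication genes were higher and 0 lower (7 and 2 with the lot as a block). The cell cycle inhibitor Cdkn1a fell by 1.66. At a common depth of 4000 UMIs, 53.4% ± 3.22 (SD, n = 3 lots) of members had a UMI of Mki67, Top2a or Cdk1 against 34.4% ± 2.03 of the other cells, with 9, 3 and 5 members of lots 26, 29 and 30 left out as shallower. Before thinning the shares were 63.5% and 48.3%. The stromal gate (49.4% ± 1.75) and the surface-epithelium gate (50.9% ± 1.001) lay close to the members and above the other cells as a whole. Cells that met the rule except for Upk3b stood above the members, at 60.6% ± 3.77. With 3 pairs of lots no exact test could give a two-sided p below 0.25, so none is given.

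The stromal gate, the mesenchymal class used for comparison, held the 4048 kept cells with at least 3 of Tcf21, Lum, Dcn, Col1a1, Ogn and Pdgfra, fewer than 3 of the 6 rule genes, no Upk3b and fewer than 5 Dazl UMIs. Their median depth was 7876 to 9891.5 UMIs per lot. Outside the genes of both gates, 292 of 12224 genes tested were higher in the Hand2/Hoxd11 gate (2.39%) and 259 lower (2.12%) by edgeR, and 816 and 882 with the lot as a block. Leaving out 1 lot gave 86 to 126 higher and 46 to 128 lower, the fewest without lot 30.

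Epithelial genes stood above stroma in the gate. Against all other kept cells 2 of the 13 tested were higher and 6 lower (median log2 fold change -1.245), so the direction depended on the class compared. The stromal gate requires at least 3 stromal markers and the Hand2/Hoxd11 gate does not, so members need not be stromal cells. The calls against stroma in part describe that choice of classes and are no independent support. Krt19 was at 61.6, 82.1 and 82.5 CPM in the gate and 7.87, 9.82 and 12.6 in stromal cells, a log2 fold change of 2.86 (SE 0.19, edgeR adjusted p = 7.62e-05). Krt7 was at 37.3, 68.7 and 72.5 CPM against 13.1, 15.6 and 15.6 (1.97, SE 0.23, edgeR adjusted p = 0.00145). Krt18 was at 87.4, 90.9 and 93.6 CPM against 32.3, 38.6 and 45.6 (1.20, SE 0.13, edgeR adjusted p = 0.00104). The lots of the classes did not overlap for any of the 3 keratins.

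Of 7 epithelial genes tested 5 were higher than in stroma (median 1.97, beside 0.00 for all genes), and of 5 surface-epithelium markers other than Upk3b 5 were higher (median 2.87). The lists share 4 genes, so these counts are not separate results. Lrrn4, a mesothelial surface protein, stood at 12.6, 16.8 and 17.3 CPM against 1.90, 2.61 and 3.66. Upk1b, a uroplakin, was 4.47 higher on the log2 scale and Gpm6a, a membrane glycoprotein, 4.44 higher. Epcam (0.82) and Krt8 (0.73) did not pass the test but did with the lot as a block (adjusted p = 0.00457 and 0.000228), and Cdh1, the junctional cadherin of epithelia, was at 1.15, 0 and 0.345 CPM in the gate and untested. Leaving out any 1 lot kept the calls of Krt19, Krt7, Krt18, Lrrn4, Upk1b and Gpm6a.

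Other genes that led the comparison with stroma were likewise high in the surface epithelium. Tm4sf5 was at 46.4, 90.9 and 69.4 CPM in the gate, 8.36, 15.2 and 15.5 in stroma and 195 ± 17.6 in the surface-epithelium gate. Myrf was at 51.0, 66.2 and 50.1 CPM, 12.04, 14.5 and 15.3, and 72.7 ± 7.97. Stk26 (log2 fold change 2.01) and Tmem108 (1.99) completed the 6 leading genes with Krt19 and Krt7. Lama5, the laminin chain of epithelial basement membranes, was at 9.75, 14.7 and 14.2 CPM against 2.40, 2.41 and 2.35 in stroma (2.39, SE 0.24, edgeR adjusted p = 0.000655).

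Fgf9, a growth factor that acts on gonadal and mesenchymal cells, stood at 10.6, 25.1 and 20.03 CPM in the gate and 1.60, 2.21 and 1.72 in stroma, a log2 fold change of 3.31 (SE 0.34, edgeR adjusted p = 0.000779). No lot overlapped. Its level in the surface-epithelium gate was 12.51 ± 3.00 CPM, and there the log2 fold change of 0.42 did not pass the test (edgeR adjusted p = 0.322, with the lot as a block 0.03). Of the 14 FGF genes tested against stroma, Fgf9 passed and no other did (4 higher and 1 lower with the block).

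Part of the HoxA difference held against the stromal gate. Members were not all stromal by the markers used below, so this is not a comparison within mesenchyme alone. Against stroma Hoxa10 was higher by 1.94 on the log2 scale (32.1, 29.3 and 26.6 against 7.25, 9.42 and 6.24 CPM, SE 0.18, edgeR adjusted p = 0.000638), and this call held without any 1 lot. Hoxa11 was higher by 3.20 (SE 0.51, edgeR adjusted p = 0.00746), with stroma at 1.35, 1.70 and 0.515 CPM, but without lot 26 its adjusted p was 0.0947 and without lot 29 0.0687. Hoxa9 was higher by 0.78 (SE 0.16, edgeR adjusted p = 0.025), with 0.23 without lot 26, 0.134 without lot 30 and 0.43 after thinning. Of 6 posterior genes 3 passed (median 0.69, 5 with the lot as a block) and of 8 anterior HoxA and HoxD genes 1, Hoxd4 (2 with the block). Of 14 HoxB and HoxC genes 0 passed by edgeR, with 8 at an unadjusted p under 0.05 and 5 with the block. Hoxd4 was lost without lot 26 or lot 30.

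Among transcription factors, Gata2 was at 34.4, 32.7 and 25.6 CPM in the gate and 13.4, 12.9 and 11.6 in stroma (log2 fold change 1.27, SE 0.15, edgeR adjusted p = 0.0017). Emx2, required for the gonadal surface epithelium and the urogenital ducts, was at 175, 166 and 174 CPM against 85.0, 79.5 and 95.6 (0.96, SE 0.09, edgeR adjusted p = 0.000655). Twist1 (0.13), Prrx1 (0.31) and Nr2f2 (-0.04) did not pass, and of 28 mesenchymal factors 3 were higher and 3 lower (6 and 4 with the block). Kdr, a VEGF receptor, was higher by 1.31 (73.7, 50.7 and 60.8 against 28.6, 20.1 and 24.7 CPM). It was the 1 of 8 endothelial markers that passed, it stood at 66.9 ± 2.97 CPM in the surface-epithelium gate, and the summed endothelial markers were at 98.9 to 187 CPM in the gate and 65.6 to 110 in stroma.

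Several genes of stroma were lower in the gate. Mfge8, a secreted glycoprotein, was at 219, 248 and 232 CPM in the gate and 835, 631 and 819 in stroma (-1.73, SE 0.13, edgeR adjusted p = 0.000153). Sparcl1, a matricellular protein, was at 142, 83.8 and 141 CPM against 433, 353 and 426 (-1.75). Itih5 (-2.24), Gna14 (-2.06) and Myh8 (-2.57) fell further from lower levels. Igfbp7 (-1.77) lost its call without lot 26 or lot 30, and by DESeq2.

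The basement membrane collagens Col4a1 (-1.10) and Col4a2 (-1.04) fell against stroma while Lama5 rose, so 1 of 14 basement membrane genes was higher and 2 lower (8 lower with the lot as a block). Of 15 fibrillar matrix genes 0 were higher and 2 lower (10 with the block), Col1a2 by 0.48 and Postn by 0.80 on the log2 scale. Of 10 genes of mesenchyme and of epithelial-mesenchymal transition 4 fell and 0 rose, Vim, Snai1, Snai2 and Zeb1. Zeb1 (-0.69) and Snai1 (-0.91), repressors of epithelial genes, did not keep their calls with 1 lot left out: Zeb1 lost it without each lot in turn and Snai1 without lot 29 or lot 30. Of 16 G2 and M phase genes 0 passed in either direction by edgeR, with 1 at an unadjusted p under 0.05 and 1 higher with the block, and Mki67 differed by 0.01.

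The surface-epithelium gate held the 2252 kept cells with Upk3b, at least 3 of Upk3b, Upk1b, Krt19, Krt7, Lrrn4 and Gpm6a, fewer than 3 of the 6 rule genes and fewer than 5 Dazl UMIs. They were deeper, with a median of 12184 to 16185 UMIs per lot. Outside the genes of both gates, 1631 of 11965 genes tested were higher in the Hand2/Hoxd11 gate (13.6%) and 1291 lower (10.8%) by edgeR, and 2607 and 2634 with the lot as a block. Without lot 30 the counts were 847 and 438 and without lot 26 898 and 480.

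Against this class mesenchymal genes were higher. The gates had already divided these classes by Upk3b and epithelial markers, so the calls describe that division and are no independent support. Of 28 mesenchymal transcription factors 25 were higher and 1 lower (median 2.08, beside 0.00 for all genes). Twist1 stood at 90.0, 80.0 and 104 CPM against 7.13, 11.5 and 8.94, a log2 fold change of 3.21 (SE 0.17, edgeR adjusted p = 9.82e-07). Hic1 (3.795), Prrx1 (3.46) and Gata2 (3.40) were among them, and Sall1 (-1.20) was the 1 lower. Of 16 fibrillar matrix genes 13 were higher and 0 lower (median 1.71), with Col1a1 higher by 2.59.

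Among the leading genes were Hoxa10 (4.44), Vcan (4.18), Itga8 (4.05), an integrin of mesenchyme, Hic1 and Lum (3.73). Vcan stood at 186, 134 and 146 CPM in the gate and 10.3, 5.74 and 7.36 in surface epithelium. Hoxa10 stood at 1.46, 0.598 and 1.41 CPM there. Hoxa11 had 1, 1 and 0 UMIs in the surface-epithelium gate of lots 26, 29 and 30, so only its level in the gate is given, 12.3, 15.5 and 4.49 CPM.

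**Figure D4:**
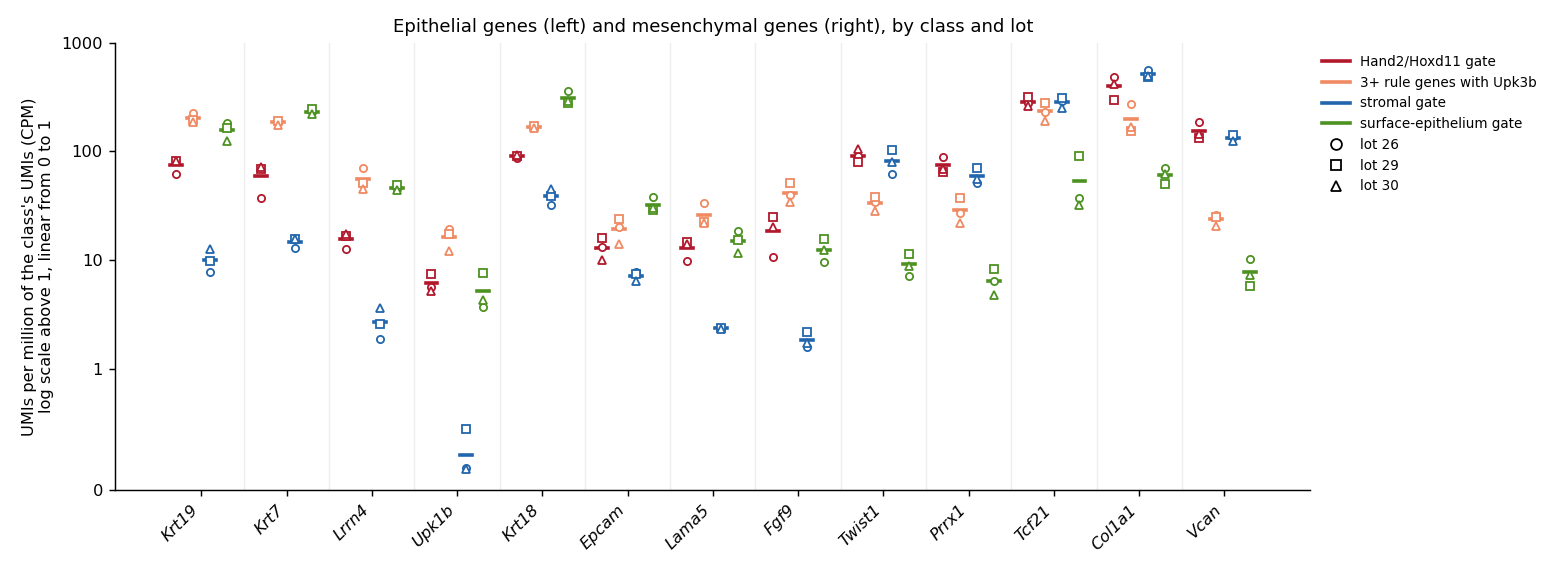
Level of Krt19, Krt7, Lrrn4, Upk1b, Krt18, Epcam, Lama5 and Fgf9 (left) and of Twist1, Prrx1, Tcf21, Col1a1 and Vcan (right) in CPM (logarithmic above 1, linear below), by class; points are lots and bars are means of 3 lots. Krt19, Krt7 and Krt18 of the gate lie between stroma and surface epithelium, and Twist1, Prrx1, Tcf21, Col1a1 and Vcan of the gate lie near stroma.

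The surface-epithelium gate requires epithelial markers and the Hand2/Hoxd11 gate requires that Upk3b be absent, so epithelial genes are compared between them as a description, without a test. Krt18 stood at 87.4, 90.9 and 93.6 CPM in the members against 360, 278 and 291 in surface epithelium. Krt19 stood between the classes, at 75.4 ± 11.9 CPM in the gate, 10.1 ± 2.37 in stroma and 157 ± 29.6 in the surface-epithelium gate, where it is a defining gene and untested.

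The leading genes that fell were Wdr72 (-3.84), Tdh, Ak7 (-3.11), Mt2, Anxa1 and Mt1 (-2.64). Mt1, a metallothionein, stood at 158, 44.8 and 156 CPM in the gate and 865, 522 and 667 in surface epithelium, with lot 29 the lowest of the gate. Lhx9, a gonadal homeobox factor, stood at 229, 313 and 264 CPM against 557, 559 and 605 and fell by 1.22.

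The genes around Rspo3 in the Wnt pathway differed by role. Of the ligands, Rspo1, the R-spondin of ovary determination, was at 64.8, 64.5 and 80.8 CPM in the gate and 153, 144 and 156 in all other cells (log2 fold change -1.19, SE 0.11, edgeR adjusted p = 0.000145), and it was also lower than in surface epithelium (-1.18). Against stroma its difference of 0.34 did not pass (edgeR adjusted p = 0.182), but passed with the lot as a block (adjusted p = 0.00892). Rspo3 itself, a rule gene, stood at 127 ± 9.68 CPM in the gate, 31.0 ± 7.09 in stroma and 7.07 ± 3.19 in surface epithelium. Rspo1 in the gate was thus below the other cells and surface epithelium and not below stroma.

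Of the receptors, Lgr5 stood at 22.6, 5.87 and 18.99 CPM in the gate and 60.2, 35.7 and 53.9 in the other cells and fell by 1.68 (SE 0.31, edgeR adjusted p = 0.00517), with lot 29 the lowest. Lgr4 (-0.24) and the ligases Znrf3 (-0.10) and Rnf43 (-0.73) did not pass, though Lgr4 and Rnf43 did with the lot as a block (adjusted p = 0.0245 and 0.0105). Lgr6 rose by 1.48 from low levels (3.44, 2.09 and 2.76 against 0.948, 0.858 and 1.05 CPM), and lost its call without lot 26 or lot 30 and after thinning.

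Wnt5a, the ligand of Ror receptors, stood at 231, 202 and 216 CPM in the gate and 73.6, 76.6 and 78.3 in the other cells, and rose by 1.42 (SE 0.10, edgeR adjusted p = 6.17e-05). Against stroma the difference was 0.36 and did not pass (edgeR adjusted p = 0.0674, with the lot as a block 0.000205). Of 9 Wnt ligands 3 were higher than in the other cells (Wnt5a, Wnt5b and Wnt11) and 2 lower (Wnt4 and Wnt6). Of 15 receptors and co-receptors 8 were higher and 0 lower, with Ror1 (1.83) and Ror2 (1.49) the highest, while of 14 tested against stroma 0 passed by edgeR, with 1 at an unadjusted p under 0.05 and 1 with the block.

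Secreted Wnt antagonists were higher, with 6 of 9 above the other cells and 0 below (median 1.34), and all 6 tested above surface epithelium (median 2.65). Dkk1, which blocks the Lrp5 and Lrp6 co-receptors, was at 20.9, 26.8 and 21.4 CPM in the gate and 3.03, 3.62 and 2.24 in the other cells (log2 fold change 2.87, SE 0.23, edgeR adjusted p = 8.83e-05). Dkk1 was the 1 of 6 antagonists that was above stroma, at 5.71, 6.21 and 5.78 CPM there (1.93, SE 0.17, edgeR adjusted p = 0.00037), and the call held without any 1 lot. Dkk2 (2.15), Sfrp1 (1.34), Sfrp2 (1.70), Dkk3 (1.23) and Frzb (2.21) were the others above the other cells. Against stroma Sfrp1 was lower by 0.43 on the log2 scale.

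Feedback targets of Wnt signalling gave no single direction. Against stroma 3 of 8 were higher (6 with the block): Notum (2.46), which inactivates Wnt proteins, Axin2 (0.65) and Lef1 (0.58). None of these kept its call with each lot left out, Notum losing it without lot 26 or lot 29, Axin2 without lot 26 or lot 30 and Lef1 without each lot. Against surface epithelium Axin2 (-0.53) and Lef1 (-0.49) were lower, losing the call without lot 26, and for Lef1 also without lot 30, while Sp5 was lower by 1.70 and Notum higher by 2.56. Axin2 stood at 51.0, 42.7 and 50.4 CPM in the gate, between 32.4, 26.4 and 31.6 in stroma and 70.1, 59.7 and 61.6 in surface epithelium.

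For the insulin-like growth factors, on whose binding proteins Pappa2 acts, 5 of 13 genes were higher than in the other cells and 1 lower, or 8 and 3 with the lot as a block. Igfbp5, a substrate of Pappa2, stood at 809, 526 and 820 CPM in the gate and 311, 239 and 318 in the other cells (log2 fold change 1.23, SE 0.17, edgeR adjusted p = 0.00107). In stroma it stood at 792, 559 and 759 CPM, and the lots overlapped. Igfbp2 stood at 210, 154 and 159 CPM and was lower than in surface epithelium (967, 740 and 753 CPM, -2.35, SE 0.15, edgeR adjusted p = 3.11e-06).

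Igf1 (-0.29) and Igf2 (0.29) did not pass against the other cells by edgeR, though both passed with the lot as a block (adjusted p = 0.034 and 0.00031). Pappa, the paralog of Pappa2, averaged 5.99 ± 2.65 CPM in the gate and 4.31 ± 0.141 in the other cells (0.43, edgeR adjusted p = 0.313). Stc1, a stanniocalcin that inhibits these proteases, was higher than in the other cells by 0.88. Against stroma 0 of the 13 genes were higher and 1 lower, Igfbp7 (2 and 3 with the block).

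Among BMP and TGF-beta genes 10 of 23 were higher than in the other cells and 3 lower. Gdf10 stood at 23.5, 11.7 and 12.8 CPM in the gate against 3.09, 2.36 and 2.63 (log2 fold change 2.52, SE 0.26, edgeR adjusted p = 0.00026), and Tgfb2 rose by 1.67. Bmp4 and Tgfb3 were the ligands above all 3 reference classes. Bmp4 was higher by 1.08 on the log2 scale over the other cells, 0.87 over stroma and 1.14 over surface epithelium. Tgfb3 was higher by 1.31, 0.86 and 0.73. The calls of Bmp4 and Tgfb3 were not recomputed with 1 lot left out. Bmp2 (-1.44) and Bmp7 (-0.85) were lower than in the other cells.

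Retinoid genes followed no single order of the classes. Aldh1a2, which makes retinoic acid, stood at 130, 181 and 131 CPM in the gate, 56.4, 90.2 and 71.4 in stroma and 242, 274 and 225 in surface epithelium. It was higher than in stroma (0.997, SE 0.20, edgeR adjusted p = 0.022), a call lost without lot 26 or lot 30, and lower than in surface epithelium (-0.86, SE 0.16, edgeR adjusted p = 0.0029), a call lost after thinning. Crabp1, a retinoic acid binding protein, was higher than in surface epithelium by 3.04 and at 168, 186 and 124 CPM against 104, 208 and 121 in stroma, where the lots overlapped. Rarb, a retinoic acid receptor, was above all 3 classes (2.06, 0.69 and 2.14), and its calls were not recomputed with 1 lot left out.

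Epithelial markers were detected in part of the members. At least 1 of 5 epithelial markers (those above without Upk3b) was detected in 36.5%, 46.2% and 40.9% of members in lots 26, 29 and 30, a mean of 41.2% ± 4.84, against 14.3% ± 2.25 of stromal-gate cells and 37.9% ± 3.00 of all other kept cells. Thinned to 4000 UMIs, members stood at 28.0% ± 7.54, stromal-gate cells at 6.53% ± 0.0754 and the other kept cells at 22.9% ± 1.25. The members were thus above stroma, while their lots overlapped with those of the other kept cells before and after thinning. At 4000 UMIs lot 26 stood at 20.9% of members, below 21.4% of its other kept cells. At least 3 of the 6 stromal markers were detected in 69.0% ± 11.0 of members. The stromal gate was the shallower class, at 7876 to 9891.5 against 9446 to 11331.5 median UMIs.

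By these markers, a division made after the data were seen, 314 members (42.6%) had stromal markers only, 200 (27.1%) had both, 101 (13.7%) had epithelial markers only and 122 (16.6%) neither. Lot 26 had the most stromal-only members (48.9%, 95% Clopper-Pearson interval 43.0 to 54.9) and lot 29 the fewest (31.4%, 25.4 to 37.9). Scrublet called 19.5% of the members with both doublets, against 7.96% of stromal-only members, 4.95% of epithelial-only and 4.92% of those with neither. The part of doublets in the mixed members was not tested.

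**Figure D5:**
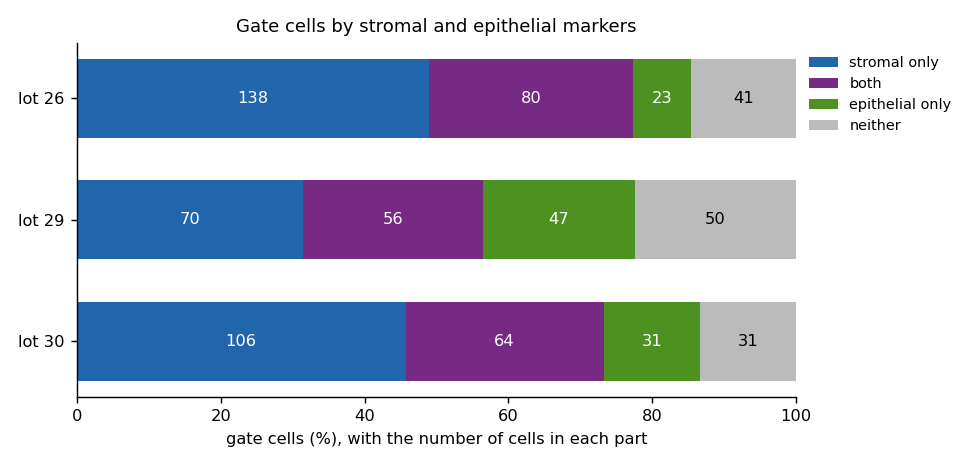
Percent of gate cells in each lot with 3 or more stromal markers only, with 1 or more epithelial markers only, with both, and with neither; numbers in the bars are cells. Lot 29 has the smallest stromal-only part (70 of 223 cells) and the largest epithelial-only part (47 cells).

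The genes outside the rule were spread unevenly over these 4 parts. Hoxa10 averaged 58.1 CPM in members with neither set of markers, 34.0 in stromal-only members, 21.4 in epithelial-only members and 12.52 in those with both. Hoxa11 averaged 25.7, 12.03, 3.41 and 1.86 CPM in the same order, but its level with neither was 22.4, 54.7 and 0 CPM in lots 26, 29 and 30, so that mean rests on lot 29. In lot 30 both genes were lower with neither than in stromal-only members, Hoxa10 at 30.6 against 35.5 CPM and Hoxa11 at 0 against 8.67. The mean of Hoxa9 was highest in epithelial-only members, at 59.4 CPM against 42.3 with neither, 36.8 stromal only and 14.8 with both, though in lot 30 stromal-only members were above them (35.5 against 29.2). Fgf9 was at 6.01 CPM with neither, 4.55 stromal only, 53.1 epithelial only and 29.7 with both. Fgf9 was thus low where Hoxa10 was highest, while Hoxa9 and Fgf9 had their highest mean in the same part.

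Hand2, a rule gene, averaged 76.7 CPM in stromal-only members, 123 in those with both, 167 in epithelial-only and 102 with neither, and Dkk1 averaged 24.0, 22.0, 19.5 and 17.1 CPM in the same order. In lot 30 Hand2 was lowest in epithelial-only members, at 74.2 CPM against 74.9 stromal only, 101 with both and 105 with neither. Dkk1 in epithelial-only members was 9.85, 48.7 and 0 CPM in lots 26, 29 and 30, so its mean there rests on lot 29. Twist1 averaged 148 CPM in stromal-only and 23.8 in epithelial-only members, and Foxd1, a stromal factor of the urogenital ridge, 80.7 and 3.31. These are descriptions over 3 lots with as few as 23 cells in a part, and no test was made between them.

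UMIs of the Y-linked genes Ddx3y, Eif2s3y, Kdm5d and Uty occurred in 2.48%, 24.2% and 2.16% of members in lots 26, 29 and 30. The other kept cells had 3.70%, 10.3% and 0.840%, and the stromal gate 6.26%, 15.96% and 1.81%. At 4000 UMIs the members of lot 29 had 14.5% (95% Clopper-Pearson interval 10.2 to 19.9) and its other cells 5.54% (5.05 to 6.07). Lot 29 thus held more cells with Y-linked RNA than the other lots in each of these classes, and most in the gate. Summed Sertoli markers, genes of the testis, were at 117 CPM in the members of lot 29 and at 49.6 and 72.9 in lots 26 and 30. They were at 397, 127 and 98.5 CPM in the other kept cells of lots 29, 26 and 30 and at 114, 38.4 and 55.2 in stroma, so they were highest in lot 29 in these classes too. With these cells left out of both classes, the genes called in the comparison with the other cells numbered 1547 higher and 1766 lower.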

How the data were processed

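The authors' deposited tables held UMI counts per gene and cell barcode, 1 table per lot. Per the study's methods, reads were processed with UMI-tools, aligned to GRCm38 with STAR 2.7, kept where uniquely mapped, assigned to genes with featureCounts 2.0.1 and counted per UMI. The annotation release and the strand setting are not given in the sources used here. The tables summed to 126680758, 87494974 and 141920060 UMIs for lots 26, 29 and 30. Barcodes with 200 to 9000 genes and at most 10% mitochondrial UMIs were kept (28971 of 29103), by thresholds that the study's methods state. The study also left out rare cells of testis identity, which were not removed here.

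UMI counts were summed per lot and class and compared with edgeR 4.0.16 (R 4.3.3; TMM scaling, filterByExpr, quasi-likelihood test, two-sided, Benjamini-Hochberg over all genes tested, threshold 0.05), checked on simulated counts first. Genes used by either gate were left out of the counts of calls. DESeq2 1.42.0 was an alternative. Levels are counts per 1000000 UMIs of the class sum (CPM). Doublets were scored with Scrublet (scanpy 1.11.5, expected rate 8%) and kept. Shares carry exact binomial (Clopper-Pearson) intervals at 95%, into which no error but that of counting enters.

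Same-numbered classes come from the same lot, and their deviations from the class means correlated (r 0.199 to 0.44), so the lot pairs them, and the fit with the lot as a block is given where it changes a call or a count by more than 1.5 times. The members and the gene lists were chosen with earlier results of these data known, so no list is independent evidence. Named genes were the rule genes, members of the 38 lists, the 10 genes higher and 10 lower against all other cells with the largest fold past the threshold (at least 20 CPM in every lot on the higher side, lots not overlapping), and the first 6 each way in the other comparisons, leaving out predicted gene models, mitochondrial, ribosomal protein and Y-linked genes. A gene that this rule named is not reported here.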

Additional observations from a re-analysis of the deposited data

How the results depend on the processing

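The share of the gate, 2.56%, followed the rule: it was 8.68% with at least 2 of the 6 genes, 0.669% with at least 4, 1.32% after thinning to 4000 UMIs, 7.34% with Upk3b not used, and 1.63%, 2.08%, 1.65%, 1.22% and 0.766% without Hand2, Hoxd11, Rspo3, Kif26b or Itm2a. The share with a proliferation UMI was 39.8% at 2000 UMIs. With the lot as a replicate block, the pairing by lot gave 2498 genes higher and 3080 lower against the other cells, 816 and 882 against stroma, and 2607 and 2634 against surface epithelium; among the named genes it lost no call. Requiring at least 4 genes gave 830 and 999 against the other cells and 1033 and 734 against surface epithelium. Thinning before the rule gave 731 and 963, and 346 and 238, with fewer cells and UMIs in each sum. Leaving out 1 lot gave 547 to 1240 higher and 598 to 1100 lower against the other cells, 86 to 126 and 46 to 128 against stroma, and 847 to 1719 and 438 to 1457 against surface epithelium, with 2 sums per class. The share of higher genes among the calls moved with it, from 53.0% to 64.0% and 65.2% against stroma without lots 26 and 30, and from 55.8% to 65.2% and 65.9% against surface epithelium. Of 48 genes recomputed against stroma, 18, 9 and 16 lost their call without lots 26, 29 and 30, and 0, 1 and 0 gained one. For genes outside those 48, calls against stroma were not followed gene by gene. Six2, at 3.99 against the other cells, went to -0.50 without lot 29 and 4.44 without lot 26. Scaling by DESeq2's size factors, no filter on low counts, DESeq2 itself, a mean of 5 CPM or more, and leaving out called doublets or cells with a Y-linked UMI kept each count of calls within 1.5 times; the CPM minimum and the Y-linked setting were chosen after the data were seen. For other changes the cause was not tested. Genes at a few CPM are limited by depth: Hoxa11 rested on 43, 37 and 13 UMIs in the gate.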
